A study of Homo sapiens with 10 samples.

Results

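The comparison described here is the state of U2OS cells carrying an shRNA against ARVCF before any drug was given. U2OS is a human osteosarcoma cell line. Its members are the 4 untreated libraries of a series of 10, namely 3 shARVCF libraries and 1 control library. They were chosen by their labels, with earlier results of these data known. The 3 shARVCF lines (lines 1, 2 and 3) each express a different lentiviral shRNA against ARVCF, and the control line expresses a negative control shRNA. All lines were grown in puromycin at 1 µg/ml, which selects for the integrated vector, and the labels speak of single clones. The other 6 libraries, 3 of the control line and 3 of the shARVCF lines, received nutlin-3a at 10 µM for 24 h, a small molecule that frees p53 from MDM2. They enter here as a source of replicate spread and as values beside the untreated ones. Because each untreated library is 1 line, an effect of its shRNA and a difference between clones cannot be told apart within it.

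ARVCF is a member of the p120 catenin family. These proteins carry armadillo repeats, bind the cytoplasmic tail of classical cadherins next to the membrane and help to keep cadherins at the cell surface. A part of the ARVCF protein is found in the nucleus. An shRNA is processed by the cell into a short guide RNA that directs cleavage of a matching mRNA, so the ARVCF mRNA itself is the first check of the lines. The study's stated purpose was the response of p53-driven genes to nutlin-3a, and the untreated comparison gives the baseline for that response.

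The values are fragments per gene, estimated and scaled across libraries by the authors, here called scaled fragments. The untreated libraries held between 17924201 and 18170593 scaled fragments. Of 26040 gene symbols, 14511 had at least 10 scaled fragments in 2 or more of the 4 untreated libraries and were kept. Osteoblast-lineage markers were present, with RUNX2 between 1061 and 1444 and the bone matrix genes COL1A1 (41166 to 57957) and SPARC (36313 to 48416). The osteoblast transcription factor gene SP7 and the bone matrix genes BGLAP and IBSP were at 0 to 3.30. Of 18 blood and endothelial markers 6 passed the filter. The summed level of all 18 was 245 in the control and 191, 333 and 300 in the lines. CD68 was measured at 30.6 to 153 and VWF and PECAM1 at 16.4 to 65.8, whereas CD3E, HBA1 and HBB were at 0 to 0.85. The epithelial genes KRT14 (195 to 491) and EPCAM (92.6 to 143) were measured in every library. The fold changes below are on a log2(value + 1) scale. They come from a linear model over all 10 libraries (limma), in which the lone control library is assumed to vary like the other groups. Nothing in the labels says that libraries came from separate cultures, so p-values measure the spread between these libraries only.

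ARVCF mRNA was lower in each of the 3 lines than in the control library. The control library held 618 scaled fragments, against 292 in line 1, 343 in line 2 and 338 in line 3. The lines thus lay close together and apart from the control, 1.91-fold lower on the fitted scale. The log2 fold change was -0.93 with a standard error of 0.15 and a 95% interval from -1.25 to -0.61. With the adjustment over all genes in limma it was not called (adjusted p = 0.107), and an exact permutation of 1 library against 3 has 4 arrangements and cannot give a p under 0.25. Under nutlin-3a, where 3 libraries stood on each side, ARVCF was lower in the shARVCF lines than in the control line by 1.08 on the log2 scale (limma, adjusted p = 2.9e-06). There the control line held 2928, 2571 and 2376 scaled fragments and the shARVCF lines 1284, 1188 and 1232, with no overlap. Those 3 control libraries repeat 1 control line, so the p-value does not measure spread between control lines. The untreated and nutlin-3a differences were alike in size, and the test of their difference gave an adjusted p of 0.56 in limma. The ARVCF gene lies on the minus strand of chromosome 22, at 19969896 to 20016808 of GRCh38, with 20 exons in its longest annotated transcript.

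The other members of the family were measured in the same libraries. CTNND1, p120 catenin itself, held 6598 scaled fragments in the control library and 6617, 6381 and 5380 in lines 1 to 3. PKP4 was nearly flat, at 2326 against 2344, 2347 and 2330. PKP2, a desmosome component, stood at 928 against 995, 743 and 769, so that line 1 lay above the control and the others below. The neuronal member CTNND2 was lower in all lines (99.9 against 76.1, 57.1 and 70.1), as was PKP3 (112 against 71.3, 75.3 and 97.7). Their fitted log2 values of -0.56 and -0.47 had intervals that included 0. PKP1 did not pass the filter on low values. CTNND1 shares exons with the readthrough gene TMX2-CTNND1, so its reads may be divided between both. ARVCF was therefore the family member with the lowest log2 value, and no family member was called.

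**Figure D1:**
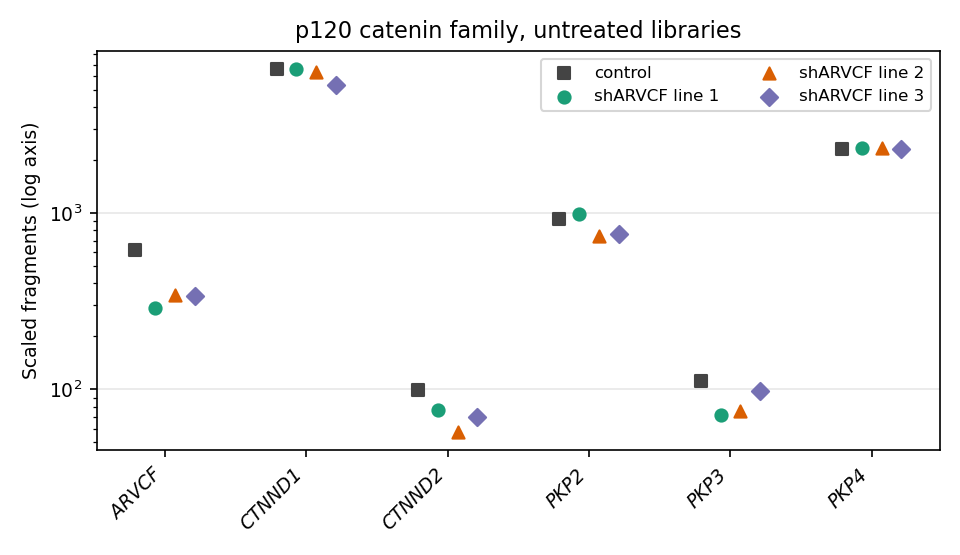
Scaled fragments (log axis) of the 6 measured p120 catenin family genes in the 4 untreated libraries, with 1 symbol per library. ARVCF is at 618 in the control library and between 292 and 343 in the 3 shARVCF lines, while PKP4 lies between 2326 and 2347 in all 4.

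Beyond ARVCF, the untreated lines differed from the control no more than they differed from each other. The median absolute log2 difference per gene was 0.140, 0.147 and 0.145 between the control and lines 1, 2 and 3. Between lines it was 0.151 for lines 1 and 2, 0.189 for lines 1 and 3, and 0.175 for lines 2 and 3. Every pair of lines was thus farther apart than any line was from the control. By the number of genes at least 2-fold apart, too, each pair of lines exceeded each pair with the control, with 400, 428 and 441 genes between the control and lines 1, 2 and 3, and 506, 660 and 485 between the lines. Among the 12293 genes with a mean of at least 50 scaled fragments, these counts were 89, 104 and 125 against 133, 227 and 155.

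**Figure D2:**
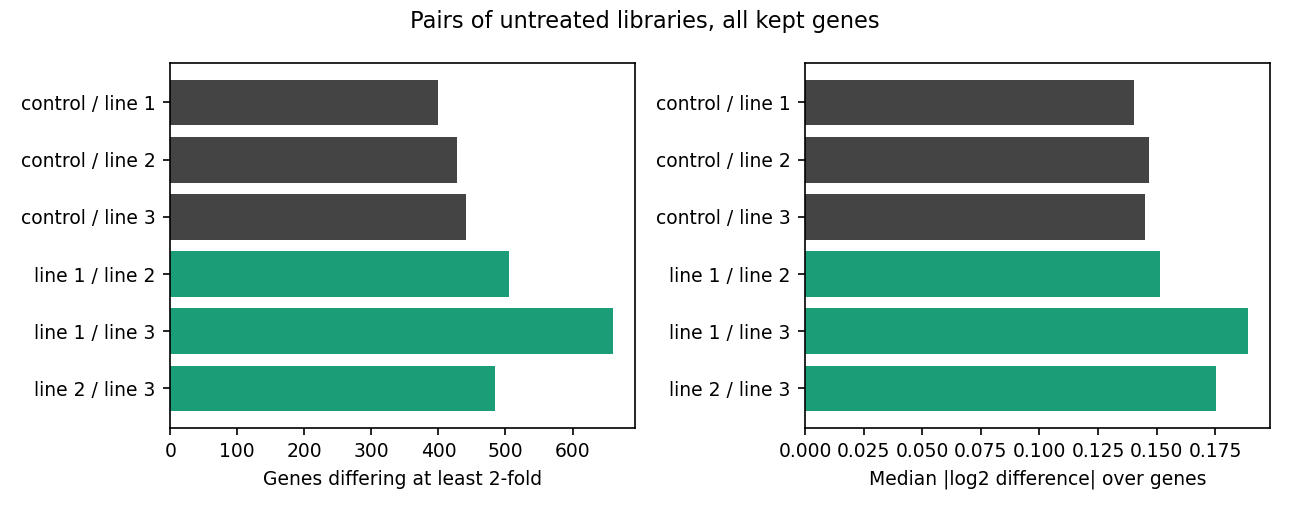
Genes at least 2-fold apart (left) and median absolute log2 difference (right) for each of the 6 pairs of untreated libraries, over 14511 genes. Dark bars pair the control with a line (400 to 441 genes) and green bars pair 2 lines (485 to 660 genes).

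In the test across genes 3 of 14511 genes were called higher (0.0207%, limma, adjusted p under 0.05) and 0 lower (0%). Before adjustment, 138 genes (0.951%) were higher and 72 (0.496%) lower at a p of 0.05. All 3 lines lay above the control library for 2765 genes (19.1%) and below it for 3025 (20.8%). These 3 ratios share 1 control library, so a departure of that library shows in all 3. At least 2-fold in every line were 48 genes above (0.331%) and 17 below (0.117%). Of those 48 genes, 40 had fewer than 10 scaled fragments in the control library and 24 fewer than 1, and only 6 of them reached a mean of 50. The 95% interval lay wholly within 2-fold either way for 11213 genes (77.3%), and within 1.5-fold for 7511 (51.8%). For these genes a larger untreated difference lies outside the interval, whereas 15 genes had intervals wholly beyond 2-fold. The intervals rest on the spread within the other groups, with repeated libraries of 1 control line among them. They do not measure spread between control lines. Under nutlin-3a, by contrast with the 3 calls here, 4809 genes (33.1%) were higher and 3829 (26.4%) lower in the shARVCF lines. The median absolute log2 fold change was 0.55 under nutlin-3a and 0.11 without it. The nutlin-3a contrast has 3 control libraries instead of 1, and 2 of them carry later library numbers. All 3 are of the same control line. An effect of the ARVCF shRNAs and a departure of that line therefore cannot be told apart there either. Fold changes also ran with base composition and, under nutlin-3a only, with gene length. Across 14307 genes, Spearman's correlation with spliced length was 0.0074 untreated and 0.58 under nutlin-3a. With GC content it was -0.32 untreated and -0.52 under nutlin-3a. With the trends on length and GC removed from those genes, ARVCF stood at -0.78 (limma, adjusted p = 0.215), 0 genes were called without drug and 5766 under nutlin-3a. PGBD3 and LOC100128361 had no length from the match to GENCODE and were not tested in that fit, and SYT16 was not called there (limma, adjusted p = 0.158).

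**Figure D3:**
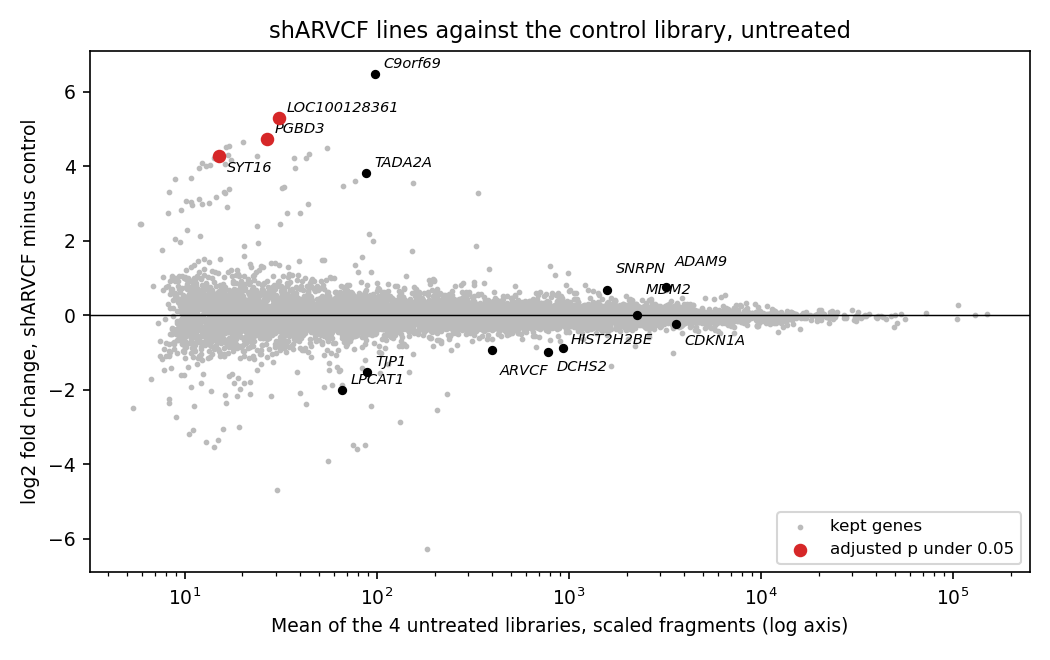
Fitted log2 fold change (shARVCF minus control, untreated) against the mean of the 4 untreated libraries (log axis) for 14511 genes. The 3 called genes (red) have means between 15.1 and 30.8 scaled fragments, and ARVCF stands at -0.93 at a mean of 398.

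The 3 called genes were all nearly absent from the control library. They fall outside the rule for named genes, because their means are low or 1 has no gene name, and were chosen after their values were seen. PGBD3, a gene derived from a piggyBac transposase, held 0.36 scaled fragments in the control library and 37.1, 30.2 and 39.1 in the lines (log2 fold change 4.73, limma, adjusted p = 0.0052). It lies at 49515105 to 49524281 of chromosome 10 in RefSeq, inside the span of the DNA repair gene ERCC6 (49434881 to 49539538), so reads of both genes cannot be fully separated. ERCC6 stood at 439 in the control and 335, 503 and 461 in the lines. In the control line under nutlin-3a PGBD3 was not near 0, with 155, 189 and 172 against 42.4, 15.4 and 35.7 in the shARVCF lines. Its difference thus had the opposite sign there (log2 fold change -2.54, limma, adjusted p = 4.1e-05). SYT16, of the synaptotagmin family of vesicle proteins, lies on chromosome 14 at 61811974 to 62112550. It held 0.0038 scaled fragments in the control library against 15.6, 12.8 and 31.8 (log2 fold change 4.29, limma, adjusted p = 0.025). Under nutlin-3a the control line held 49.0, 60.2 and 53.4 and the shARVCF lines 34.3, 37.6 and 75.2, which overlap. The unnamed locus LOC100128361 went from 0.069 to 42.6, 38.5 and 42.1 (log2 fold change 5.30, limma, adjusted p = 0.015), and was at 2.78 to 8.65 in all 6 nutlin-3a libraries. A value near 0 in a table of estimated fragments can be a failed estimate, and fitted folds from such values depend on the pseudocount. With a pseudocount of 10 the count of called genes was 0.

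Among genes with a mean of at least 50 that lay on one side in all lines, the 15 highest and 14 lowest are given as values, since the adjusted p of each stayed above 0.05. SNRPN, an imprinted gene for an Sm-type splicing protein, was even between the lines, with 1091 scaled fragments in the control library and 1808, 1759 and 1688 in the lines. The log2 fold change was 0.68 with a 95% interval from 0.44 to 0.92 (limma, adjusted p = 0.107). SNRPN shares its locus with SNURF, and their reads may be divided in more than 1 way. SNRPD3, the Sm core protein D3, stood at 2207 against 3420, 3578 and 3647. Under nutlin-3a neither was called, and SNRPN was at 2579 ± 55.9 (SD, n = 3) in the control and 2323 ± 60.9 in the shARVCF lines.

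ADAM9, a membrane-bound metalloprotease that sheds surface proteins, held 2120 scaled fragments in the control library and 3282, 3739 and 3759 in the lines (log2 fold change 0.76, 95% interval 0.43 to 1.09). It stood apart under nutlin-3a as well, at 645 ± 88.8 (SD, n = 3) in the control and 4177 ± 140 in the shARVCF lines. F13A1, the transglutaminase chain of coagulation factor XIII, was at 513 against 1248, 1402 and 821. STARD3NL, a late endosome membrane protein, was at 620 against 1046, 1184 and 1037. TNFRSF21, a death receptor, was at 929 against 1196, 1785 and 1472, and the G-protein regulator RGS7 at 47.4 against 82.0, 123 and 120. All 5 were also higher in the shARVCF lines under nutlin-3a, where each was called (log2 fold changes 0.85 to 2.92, limma). Of all kept genes, 33.1% were called higher there. SEC61B, a subunit of the channel that passes new proteins into the endoplasmic reticulum, stood at 635 against 922, 965 and 992 without drug. Under nutlin-3a it was lower by 0.51 on the log2 scale. HINT2, NGFRAP1, RMDN1, LHFP and TMEM171 made up the middle of the upper group, with log2 values between 0.58 and 1.49. The 2 topmost were uneven: TADA2A, an adaptor of histone acetyltransferase complexes, was at 7.03 against 147, 124 and 76.2, and C9orf69 at 0.26 against 43.3, 176 and 175. The interval of C9orf69 ran from 2.93 to 10.0.

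Among the lowest genes, DCHS2 had the same adjusted p as ARVCF. This large protocadherin of the dachsous type held 1252 scaled fragments in the control library and 613, 624 and 646 in the lines (95% interval of the log2 fold change -1.35 to -0.64, limma, adjusted p = 0.107). The lines were nearly equal, and the control lay 1.99-fold above them. Under nutlin-3a the order turned, with 169 ± 17.8 (SD, n = 3) in the control and 384 ± 26.1 in the shARVCF lines. LPCAT1, an enzyme of phospholipid remodelling, stood at 151 against 33.1, 31.4 and 48.4, and TJP1, the tight junction scaffold ZO-1, at 173 against 70.6, 68.6 and 43.8. Both were again of opposite sign under nutlin-3a, where the control line held 10.2 ± 2.62 and 9.17 ± 3.24.

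Several of the lowest genes code for signalling or surface proteins. ID3, an inhibitor of basic helix-loop-helix factors that responds to BMP signals, held 1261 scaled fragments in the control library and 825, 707 and 829 in the lines. MICA, a ligand that flags stressed cells to natural killer cells, stood at 383 against 183, 225 and 252. TRIM29 was at 87.7 against 35.7, 54.7 and 35.5, and the membrane metalloprotease MMP15 at 930 against 688, 580 and 589. The log2 values of these 4 lay between -1.07 and -0.59 and kept their sign under nutlin-3a. There ID3 (-0.58) and TRIM29 (-1.36) were called, beside 26.4% of all genes called lower. MEF2BNB, PLD5, FBXL16 and SGK223 followed with log2 values between -1.40 and -0.56.

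ARVCF works at cadherin junctions, so the genes of those junctions were read as groups. Of 26 cadherin superfamily genes kept, 10 lay below the control in all lines and 2 above, against 20.8% and 19.1% of all genes, and 0 were called (limma). At an unadjusted p of 0.05, 1 was lower and 0 higher. Their median log2 fold change was -0.14, and -0.01 for all kept genes. CDH2, the N-cadherin of mesenchymal cells, held 3144 scaled fragments in the control and 2732, 2758 and 2755 in the lines. CELSR3, a cadherin of planar cell polarity, stood at 1525 against 1027, 1189 and 1246, and its relative CELSR2 at 2263 against 1917, 1794 and 1790. CLSTN2, a calsyntenin, was at 310 against 231, 240 and 265. The 95% interval of CDH2 ran from -0.46 to 0.07, so a fall of 2-fold or more lies outside it.

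On the cytoplasmic side of the junction, among 19 catenins and adherens junction partners, 4 were above and 4 below the control in all lines (19.1% and 20.8% of all genes), with a median of -0.02. JUP, plakoglobin, stood at 1414 against 1062, 1427 and 1132, and CTNNAL1, an alpha-catenin relative, at 1561 against 1828, 1972 and 1820. CAMSAP3, which ties microtubule minus ends to junctions, was at 145 against 96.5, 119 and 117, and CTNNBIP1, an inhibitor of beta-catenin, at 564 against 636, 755 and 605. Of the 19 tight junction and desmosome plaque genes 3 were above and 4 below, with TJP1 the lowest, and fitted values ran from -1.52 to 1.43. No gene of these 2 lists was called (limma), and at an unadjusted p of 0.05 TJP1 alone was lower and 0 were higher.

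The p53 pathway set the baseline of the study and was close to the control without drug. MDM2, the ubiquitin ligase that limits p53, held 2244 scaled fragments in the control library and 2051, 2019 and 2787 in the lines, a log2 fold change of 0.01 with an interval from -0.40 to 0.42. CDKN1A, the p21 inhibitor of the cell cycle, stood at 3999 against 2636, 3283 and 4528 (log2 fold change -0.24, interval -0.77 to 0.30). In both genes line 3 lay above the control and lines 1 and 2 below. Among 68 arrest and feedback targets 5 were above and 12 below in all lines (19.1% and 20.8% of all genes), with a median of -0.02, and 64 had intervals within 2-fold, or 94.1% beside 77.3% of all genes. Of 22 apoptosis targets 2 were above and 0 below, beside the same shares, and 20 had such intervals. Among the 12293 genes with a mean of at least 50 scaled fragments, 11049 had such intervals.

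The p53 targets named by rule lay on either side of the control. TP53INP1 held 1042 scaled fragments in the control and 701, 811 and 903 in the lines, and CYFIP2 stood at 1576 against 1361, 1199 and 1554. The repair gene DDB2 was at 1567 against 1528, 1999 and 2076. CMBL, the highest named member, stood at 182 against 230.5, 268 and 310. Of the death genes, BAX held 1423 against 1169, 1225 and 1458, and BBC3, which codes for PUMA, 365 against 253, 327 and 375. TNFAIP8 was at 167 against 221, 199 and 192 and IKBIP at 780 against 884, 902 and 874. No target of either list was called (limma), with 1 higher and 1 lower at an unadjusted p of 0.05. The lines differed among themselves here: line 3 was the highest of the 4 libraries for 31 of the 68 arrest targets and 13 of the 22 apoptosis targets, or 45.6% and 59.1%, beside 25.8% of all genes. Line 1 had the lowest list medians, -0.12 and -0.18. Under nutlin-3a MDM2 was at 10476 ± 879 (SD, n = 3) in the control line and 21548 ± 2504 in the shARVCF lines, and its 2 differences were themselves different (limma, adjusted p = 0.0052). CDKN1A was not called there either, at 32035 ± 3685 against 29443 ± 3059.

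The replication-dependent histone genes had the lowest median fitted log2 fold change of the lists reported, -0.66, with medians of -0.95, -0.17 and -0.57 in lines 1, 2 and 3. These genes are transcribed in S phase, and most of their mRNAs end in a stem-loop instead of a poly(A) tail, so a poly(A)-based library holds only a part of them. Of 21 listed, 11 passed the filter. Of these, 7 lay below the control in all lines and 0 above, against 20.8% and 19.1% of all genes, 0 were called (limma), and 3 were lower at an unadjusted p of 0.05. The summed level of all 21 listed genes was 11647 scaled fragments in the control and 5879, 7775 and 5938 in lines 1 to 3. In fragments, the gap came mostly from 3 genes. HIST2H2BE, an H2B gene, held 1402 against 726, 882 and 704 (log2 fold change -0.87, 95% interval -1.18 to -0.56, limma, adjusted p = 0.112), the linker histone gene HIST1H1C 3280 against 1660, 1922 and 1945, and HIST1H2BK 5504 against 2691, 3517 and 2168. Without line 2 HIST2H2BE was called, with a log2 fold change of -0.97 (limma, adjusted p = 0.043).

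The remaining histone genes were less even between the lines. HIST1H2BJ stood at 285 against 121, 247 and 192, HIST1H2AC at 446 against 192, 322 and 398, HIST1H2BC at 96.9 against 42.0, 95.1 and 45.9, and HIST1H4H at 52.1 against 27.7, 46.1 and 27.2. In each of them line 2 or line 3 lay near the control. Line 2 was above the control for the other 4 genes. HIST1H2BD was at 429 against 294, 448 and 338, HIST2H2AC at 40.2 against 42.9, 43.1 and 29.7, HIST1H2AG at 71.3 against 51.8, 113 and 56.9, and HIST1H1E at 14.2 against 15.7, 96.1 and 11.7. Under nutlin-3a HIST1H1C (log2 fold change -1.15), HIST1H2BK (-0.94) and HIST1H2BD (-0.87) were lower and HIST1H2AC (0.64) and HIST1H2AG (2.28) higher in the shARVCF lines (limma, adjusted p between 1.7e-05 and 0.026). That is 3 of 11 genes called lower and 2 called higher, beside 26.4% and 33.1% of all genes. HIST2H2BE was not called there.

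**Figure D4:**
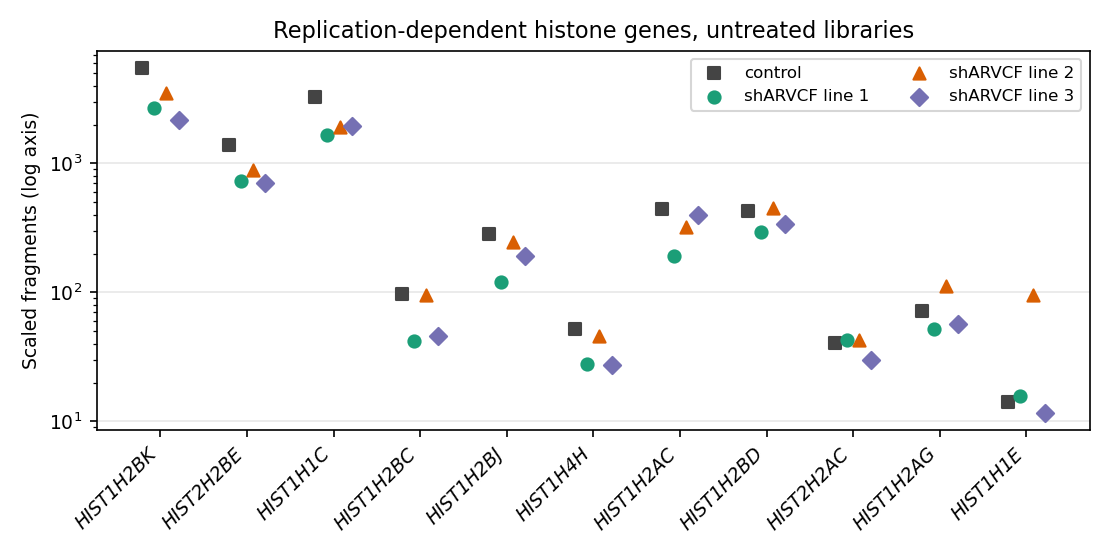
Scaled fragments (log axis) of the 11 measured replication-dependent histone genes in the 4 untreated libraries, ordered by fitted log2 fold change. The control library is highest for 7 genes, and line 2 is highest for the other 4.

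Because these genes share promoter elements, the windows upstream of the 3 genes that carried the sum, and of HIST1H2BJ as a near relative of HIST1H2BK, are printed from RefSeq (GRCh38.p14). Each window is the 130 bases before the transcription start, 5′ to 3′ on the gene's strand. Capitals mark the CCAAT box (CCAAT, or ATTGG on the other strand), the octamer bound by OCT1 in H2B promoters (ATTTGCAT or its reverse complement) and the TATA box (TATAAA on either strand). HIST2H2BE lies at chr1:149886683-149886812, HIST1H2BK at chr6:27146859-27146988, HIST1H2BJ at chr6:27132796-27132925 and HIST1H1C at chr6:26056471-26056600, all on the minus strand.
HIST2H2BE: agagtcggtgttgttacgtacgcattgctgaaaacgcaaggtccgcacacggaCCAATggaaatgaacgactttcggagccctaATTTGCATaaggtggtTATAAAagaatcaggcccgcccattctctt
HIST1H2BK: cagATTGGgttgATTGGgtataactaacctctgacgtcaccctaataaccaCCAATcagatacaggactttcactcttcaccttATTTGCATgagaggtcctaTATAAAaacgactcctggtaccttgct
HIST1H2BJ: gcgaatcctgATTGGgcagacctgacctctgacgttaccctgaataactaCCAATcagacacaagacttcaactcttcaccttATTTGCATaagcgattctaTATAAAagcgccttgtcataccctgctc
HIST1H1C: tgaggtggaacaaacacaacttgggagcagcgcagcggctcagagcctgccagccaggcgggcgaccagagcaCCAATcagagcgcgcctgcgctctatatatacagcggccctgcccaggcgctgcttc
The matches do not overlap one another in these 4 windows. The octamer began 46 bases before the start in HIST2H2BE and HIST1H2BK and 47 in HIST1H2BJ, and HIST1H1C held a CCAAT box alone. Of the 11 measured histone genes 10 had a window in the table: 9 held CCAAT, 8 TATAAA and 4 the octamer. Among 35116 promoter windows of the same length, 21.5% held CCAAT, 5.99% TATAAA and 0.914% the octamer. Both HIST2H2BE and HIST1H2BJ face an H2A gene across their window, HIST2H2AC and HIST1H2AG, whose own windows overlap theirs on the other strand. The H2A partners had log2 values near 0 (-0.08 and -0.04), with intervals from -1.18 to 1.02 and from -1.16 to 1.08, beside -0.87 and -0.67 for the H2B genes.

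Replication-dependent histone genes are transcribed in S phase, so the genes of replication and division were read beside them. Whether the histone values measured here follow DNA synthesis was not tested. Of 61 DNA replication genes, 27 lay above the control in all lines and 2 below, against 19.1% and 20.8% of all genes, and 0 were called (limma). The shifts were small, with a median of 0.05, and 56 of the 61 had intervals within 2-fold, beside 77.3% of all genes. The replicative helicase subunit MCM7 was the exception in size, at 4723 in the control and 7068, 6210 and 6804 in the lines (log2 fold change 0.50, 95% interval 0.25 to 0.75), and the list's only gene with an unadjusted p under 0.05. MCM6 of the same complex stood at 2580 against 3133, 3082 and 2615. MCM7 hosts the microRNA genes MIR106B, MIR25 and MIR93 within its introns. Of 78 mitosis genes 20 were above and 7 below, beside the same shares of all genes, with a median of 0.03. SMC2, a condensin subunit, was at 3128 against 3985, 3697 and 3499.

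Of 32 targets of TGF-beta and BMP signals, 14 were below the control in all lines and 2 above, against 20.8% and 19.1% of all genes. Their median was -0.11, and 0 were called (limma). At an unadjusted p of 0.05, 3 were lower and 0 higher. The ligand gene TGFB2 held 2590 scaled fragments in the control and 1889, 1846 and 2241 in the lines, and ID1 stood at 1340 against 1007, 991 and 1142. THBS1, which codes for an activator of latent TGF-beta, was at 19324 against 13174, 17030 and 14720. In 29 of the 32 genes the interval lay within 2-fold, beside 77.3% of all genes. In addition, 10 of 27 Wnt and beta-catenin targets were below (20.8% of all genes) and 1 above (19.1%), with a median of -0.06. Among them AXIN2, a feedback inhibitor, was at 812 against 666, 641 and 644 and the receptor LGR4 at 532 against 367, 476 and 367. Of 24 YAP and TAZ targets, 11 were below (20.8% of all genes) and 4 above (19.1%). Epithelial markers gave 8 below and 2 above of 18, beside the same shares, and the keratins KRT17 (15435 against 12612, 12397 and 9029) and KRT8 (6489 against 4712, 4531 and 6194) were among them. None of these 3 lists held a called gene (limma), while at an unadjusted p of 0.05 they held 2 lower genes and 1 higher.

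**Figure D5:**
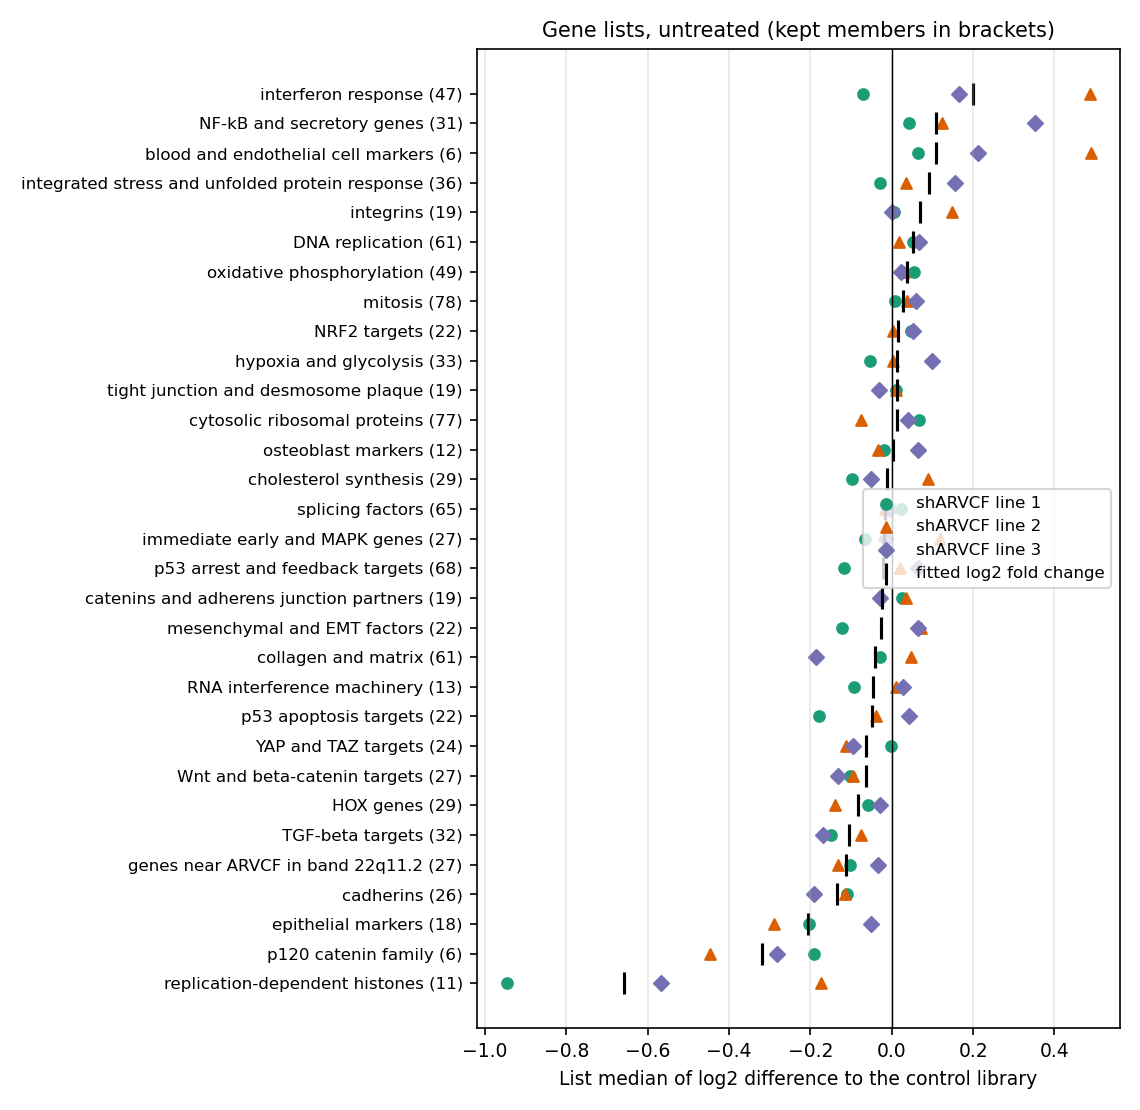
Median log2 difference to the control library for each of the gene lists reported, shown per line (symbols) and for the fitted fold change (bar), with kept members in brackets. Histone genes lie at -0.66, with lines from -0.95 to -0.17, interferon genes at 0.20, with lines from -0.07 to 0.49, and the other fitted medians lie between -0.32 and 0.11.

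Some groups were uneven between the lines. Interferon-response genes were highest in line 2 for 38 of 47 members, or 80.9%, beside 26.2% of all genes. The list medians were -0.07, 0.49 and 0.17 for lines 1, 2 and 3. STAT2, which carries the interferon signal, held 1177 scaled fragments in the control and 1460, 1625 and 1225 in the lines. Among the antiviral effectors, chosen after their values were seen, IFIT3 stood at 225 against 116, 915 and 386. B2M, the light chain of class I molecules, was at 173 against 161, 2685 and 189. The list held 0 called genes (limma) and 0 at an unadjusted p of 0.05 in either direction. Of 31 NF-kB and secretory genes, 18 were highest in line 3, or 58.1% beside 25.8% of all genes. In all lines 14 lay above the control and 4 below, against 19.1% and 20.8% of all genes, and the line medians were 0.04, 0.12 and 0.35. Among them the chemokine gene CCL2 stood at 758 against 1004, 1267 and 1821, and the stromelysin gene MMP3 at 16.4 against 17.0, 156 and 176, both chosen after their values were seen. Here too 0 genes were called or reached an unadjusted p of 0.05 (limma).

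ARVCF lies in band 22q11.2, and its neighbours were read for a local shift. Of 27 kept genes, 13 were below the control in all lines and 0 above, against 20.8% and 19.1% of all genes. Their median was -0.11, and 24 had intervals within 2-fold, beside 77.3% of all genes. Genes of chromosome 22 as a whole had medians of -0.07, -0.09 and -0.06 in lines 1 to 3. Those of chromosome 19 had medians of -0.08, -0.10 and -0.05, so values of this size were not particular to chromosome 22. Untreated fold changes also ran with GC content across genes (Spearman's correlation -0.32), and a part of GC in the shift was not tested. RTN4R, the Nogo receptor, held 726 scaled fragments against 583, 583 and 545, SEPT5 1243 against 931, 1134 and 960, and SLC25A1, the mitochondrial citrate carrier, 1471 against 1359, 1204 and 1270. DGCR8, which with Drosha makes microRNA precursors, was at 1126 against 988, 1035 and 1099. No neighbour was called or reached an unadjusted p of 0.05 (limma). Over all chromosomes, the median per line lay between -0.10 and 0.07.

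All 49 oxidative phosphorylation genes had intervals within 2-fold, beside 77.3% of all genes and 11049 of the 12293 with a mean of at least 50. In all lines 21 lay above the control (19.1% of all genes) and 6 below (20.8% of all genes), with a median of 0.04. COX4I1, a subunit of cytochrome c oxidase, was the highest, at 3017 in the control against 4353, 4030 and 4064 in the lines (log2 fold change 0.46, 95% interval 0.17 to 0.75). Under nutlin-3a the same list had 43 genes called lower and 1 higher in the shARVCF lines (26.4% and 33.1% of all genes), with a median of -0.79. COX4I1 was among those lower, at 6003 ± 320 (SD, n = 3) in the control and 4071 ± 393 in the shARVCF lines. Among ribosomal protein genes, 74 of 77 intervals lay within 2-fold without drug, beside 77.3% of all genes, with a median of 0.01. Under nutlin-3a 75 of them were called lower, beside 26.4% of all genes. The nutlin-3a fold changes ran with spliced length across genes (Spearman's correlation 0.58), and the calls in these lists were made without removing that trend.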

How the data were processed

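Poly(A) RNA was sequenced after stranded library preparation (TruSeq Stranded mRNA, per the labels' protocols). Per the submitters' processing notes, the tools were bcl2fastq 1.8.3, HISAT2 2.1.0 and Cuffnorm 2.2.1, with the hg38 build. The name of the gene annotation was not given in the sources used here. Each deposited value is a signal: the authors estimated fragments per gene and multiplied them by a factor per library. It is not whole: divided by the commonest low value of the library, 31.8% to 44.8% of its positive values came within 0.01 of a whole number. From that value the unscaled totals were estimated at 15073345 to 21097223 fragments, and values near 10 rest on about that many fragments.

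Values were analysed as log2(value + 1). Genes at 10 or more in 2 or more of the 4 untreated libraries were kept. A linear model with 4 group means over 10 libraries, moderated with a trend and robust weights (limma 3.58.1, R 4.3.3), replaced the count-based test planned for whole counts. It was tested on simulated data. Tests were two-sided, with Benjamini-Hochberg adjustment over all kept genes and calls at 0.05. The members and the 32 gene lists were chosen with earlier results of these data known. Named genes are ARVCF, MDM2, CDKN1A, the p120 family, up to 15 genes per direction with a mean of at least 50, all lines on one side and, where not called, an unadjusted p under 0.01, and up to 4 members per list by adjusted p. Pseudogenes, small RNA genes, antisense or host transcripts and symbols without a gene name were not eligible. Genes outside this rule are marked, apart from ERCC6, COL1A1, DGCR8 and the remaining histone genes, which were also added after values were seen. One list and some genes within the rule are not reported here.

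Symbols were matched to GENCODE release 29 (24016 by name, 694 by a RefSeq synonym, 1330 unmatched), and promoter windows to RefSeq. Replicate numbers name the shRNA line. Residuals of the same line with and without nutlin-3a correlated at 0.294, 0.313 and 0.339 across genes and those of other pairs at -0.0924 to -0.22, so the numbers pair the shARVCF libraries. Alternatives were other pseudocounts, filters and scalings, the 4 untreated libraries alone, the libraries of the first number series alone, a replicate block, no trend, a fold threshold, removal of trends with length and GC, and each library left out. Fits without genes of 16-fold range in a group, and without genes that overlap another on the same strand, were chosen after seeing the data.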

Additional observations from a re-analysis of the deposited data

Results flagged for a closer look

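For 44 of 87 printed genes the untreated difference (shARVCF minus control) was itself unlike the difference under nutlin-3a, by the test of the difference in limma at an adjusted p of 0.05. Of all kept genes 4772 (32.9%) passed that test, and 2004 of 14307 (14%) after removal of the length and GC trends, where 21 of the 44 remained. In 28 of the 44 the fitted differences had opposite signs. The values below are the untreated minus the nutlin-3a log2 fold change, and their causes were not tested. Among junction and cadherin genes it was -0.95 for CTNND1, -1.49 for CTNND2, -1.47 for PKP2, -0.60 for PKP4, -2.71 for TJP1, -2.17 for DCHS2, -1.32 for CELSR2, -1.10 for CELSR3, -0.99 for CLSTN2, -0.73 for CDH2 and 1.05 for CTNNBIP1. For p53-pathway genes the value was -1.03 for MDM2, -1.35 for TP53INP1 and 0.71 for BAX. The 3 called genes, near 0 in the lone control library and not in all control libraries under nutlin-3a, stood at 7.27 for PGBD3, 5.12 for LOC100128361 and 4.52 for SYT16. Genes among the highest without drug gave 6.11 for C9orf69, -1.79 for F13A1, -1.94 for ADAM9, 0.97 for SNRPD3, 0.83 for SNRPN, 0.76 for NGFRAP1, 1.11 for SEC61B and 0.53 for RMDN1. Of the lowest genes the values were -3.58 for LPCAT1, -1.09 for PLD5 and -0.94 for FBXL16. In the histone genes they were -0.69 for HIST2H2BE, -1.26 for HIST1H2AC and -2.32 for HIST1H2AG. Replication, division and repair genes had 0.42 for MCM7, -1.56 for SMC2 and -0.79 for ERCC6. TGF-beta, BMP and Wnt targets had -1.37 for TGFB2, 0.69 for ID1, -1.32 for THBS1, -1.92 for LGR4 and -1.33 for AXIN2. The others were 1.02 for COX4I1, 1.18 for KRT17, 0.94 for KRT8, 0.78 for SLC25A1 and -1.23 for RUNX2.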

How the results depend on the processing

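ARVCF kept its direction in 25 other settings, with log2 fold changes from -0.97 to -0.78 and adjusted p from 0.08 to 1, and was called in 0 of them. The count of called genes, 3 as reported, was 5 with a pseudocount of 0.1, 0 with a pseudocount of 10, 0 with a filter of 50, 0 with the 4 untreated libraries alone, 1 in the first number series, 0 after removal of the length and GC trends, 1 (SYT16) without overlapping genes, and between 1 and 5 with each library left out. PGBD3 and LOC100128361 had no length or position from the match to GENCODE and were not tested in those 2 settings, so the gene set changed with the setting. Line 1 is the library without which 1 gene was called, and line 2 the one without which 5 were. PGBD3 was called in 19 of 22 settings that tested it, LOC100128361 in 19 of 22 and SYT16 in 13 of 24. Genes at least 2-fold away in every line, 65 as reported, numbered 26 with a pseudocount of 10, 323 with no filter, 99 with a filter of 10 in 3 of all 10 libraries, 11 with a filter of 50, 31 without overlapping genes, and 119 to 159 with 1 shARVCF line left out, where fewer lines must pass. Nutlin-3a calls, 8638 as reported, were 2777 with a fold threshold of 1.5 and 5547 without overlapping genes, where fewer genes were tested. With the replicate block pairing libraries of a line (within-line correlation 0.179), 3 genes were called without drug and 7997 under nutlin-3a, and ARVCF had an adjusted p of 0.125.

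Signs reversed for 6 genes, all with intervals that include 0. MDM2 was -0.028 after removal of the length and GC trends and -0.14 to 0.091 with a library left out. With a library left out, HIST1H2AG ran from -0.39 to 0.17, HIST1H1E from -0.059 to 1.41, HIST2H2AC from -0.17 to 0.10, ERCC6 from -0.16 to 0.13 and IFIT3 from -0.085 to 1.40. HIST1H1E and IFIT3 were below 0 without line 2, their highest library; the causes were not tested. HIST2H2BE was called lower without line 2. The lone control library cannot be left out, so no setting tests it. Values under about 10 fragments, the calls included, are limited by depth.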

Other observations

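Several groups not described above differed in which line was highest. Cholesterol synthesis genes were highest in line 2 for 20 of 29 members, or 69% beside 26.2% of all genes. Their median against the control was -0.01, and 28 of 29 intervals lay within 2-fold, beside 77.3% of all genes. Hypoxia and glycolysis genes were highest in line 3 for 19 of 33 (57.6% beside 25.8%), and genes of the integrated stress and unfolded protein response for 20 of 36 (55.6%). Their medians against the control were 0.01 and 0.09. Ribosomal protein genes were highest in line 1 for 45 of 77 (58.4% beside 27.2%) and in line 2 for 2.

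Other groups lay near the control, and no gene in them was called (limma, adjusted p at 0.05). Among 29 HOX genes 5 were above the control in all lines and 9 below, against 19.1% and 20.8% of all genes here and in the lists that follow, with a median of -0.08. Of 61 collagen and matrix genes 6 were above and 12 below (median -0.04), and of 19 integrins 5 above and 3 below (median 0.07). Splicing factors gave 18 above and 13 below of 65 (median -0.02), NRF2 targets 7 and 3 of 22 (median 0.02), immediate early and MAPK genes 6 and 7 of 27 (median -0.02), and mesenchymal factors 3 and 2 of 22 (median -0.03). All 13 genes of the RNA interference machinery, the pathway through which an shRNA acts, had intervals within 2-fold. The share of all genes was 77.3%, and the list median was -0.05. At an unadjusted p of 0.05 these 8 lists, HOX genes to RNA interference, held 2 higher genes and 1 lower.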
